A study of Mus musculus with 8 samples.

Results

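The 9 genes described here encode transcription factors and a cofactor that act when keratinocytes of the epidermis leave the basal layer and build the cornified surface: Trp63, Zfp750, Klf4, Grhl1, Grhl3, Ovol1, Hopx, Dlx3 and Maf. They were found by their gene symbols in the array annotation. All 9 were measured, among 30063 genes with a probe set of their own, and all 9 lay above the highest negative control median, 4.46 on the log2 scale, on every array.

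Epidermal keratinocytes divide on the basement membrane, move upwards, change their keratins and end as dead cornified cells. p63, the product of Trp63, keeps the basal cells and starts stratification, and the zinc finger protein made from ZNF750 acts downstream of it in human keratinocytes, where it induces KLF4. KLF4 and the grainyhead-like factors drive barrier genes of the upper layers, OVOL1 represses proliferation genes such as Myc in cells that leave the cycle, and DLX3 and MAF turn on late differentiation genes. HOPX is a small homeodomain protein that does not bind DNA itself and works through partner factors.

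RNA came from forepaw skin of 4 Krt16 null mice and 4 wild-type (WT) mice, C57Bl/6 littermates aged 8 weeks, with 2 males and 2 females of each genotype and 1 Affymetrix array per mouse. In the null allele bacterial LacZ stands in place of the Krt16 coding sequence, and every cell of the animal carries the allele. Krt16 is a keratin gene that thick paw epidermis and wounded skin switch on. The labels call every null sample lesional and every WT sample normal, so the allele and the lesion cannot be told apart. Signals are log2 RMA values, each difference is the null mean minus the WT mean, given with a standard error (SE), and a gene is called at an adjusted p under 0.05 (limma, Benjamini-Hochberg over all 30063 genes). Array values are given in the order male 1, male 2, female 1 and female 2 of a genotype.

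Hopx had the largest difference of the 9 genes, and its sequence at both annotated starts is shown for that reason. The sequences are those of RefSeq for build GRCm38.p6, minus strand, with 250 bases before the start in lower case and 50 bases from the start on in capitals. The first lies at chr5:77115074-77115373 and the second at chr5:77095218-77095517.
Hopx, first start: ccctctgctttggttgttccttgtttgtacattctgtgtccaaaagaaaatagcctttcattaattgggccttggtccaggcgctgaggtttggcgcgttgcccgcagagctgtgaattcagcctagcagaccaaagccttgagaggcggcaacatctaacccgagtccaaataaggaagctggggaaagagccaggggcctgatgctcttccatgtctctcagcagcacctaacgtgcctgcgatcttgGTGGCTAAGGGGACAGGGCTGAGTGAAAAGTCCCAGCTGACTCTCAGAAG
Hopx, second start: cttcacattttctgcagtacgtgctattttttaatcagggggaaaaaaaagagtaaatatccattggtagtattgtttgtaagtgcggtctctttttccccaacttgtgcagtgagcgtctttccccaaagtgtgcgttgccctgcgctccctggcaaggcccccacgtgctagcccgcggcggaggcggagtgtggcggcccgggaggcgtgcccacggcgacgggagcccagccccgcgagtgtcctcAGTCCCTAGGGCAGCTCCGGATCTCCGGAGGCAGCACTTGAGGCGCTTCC
AACCGGTT, a core sequence bound by grainyhead-like factors that reads the same on both strands, was searched for in these windows. The promoter table held 6 promoters for 4 of the 9 genes (Hopx, Klf4, Grhl1 and Grhl3), and 0 of the 6 held these letters. They occurred in 48 of all 32851 promoters of the same length, or 0.146%. Letters this rare are seldom found in any 6 promoters, so their absence tells nothing about control by grainyhead-like factors. The promoters of Tgm1, a gene that Grhl3 activates in mice, held 0 matches as well.

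Krt16 had 6.83, 6.88, 6.89 and 6.99 in null skin and 8.48, 8.20, 7.05 and 9.66 in WT skin. All null arrays lay below all WT arrays, and female WT 1 lay within 0.1 of the highest null array. The difference was -1.45 (SE 0.44, adjusted p = 0.0609), so Krt16 was not called. Without female WT 1 it was -1.98 (adjusted p = 0.000756). Where the Krt16 probes lie relative to the replaced sequence is not known here. Without the same array Hopx differed by 0.58 (adjusted p = 0.00219), Dlx3 by -0.47 (adjusted p = 0.00219) and Maf by -0.47 (adjusted p = 0.00384), and all 3 stayed called.

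Across the 9 genes, Hopx was higher in null skin, Dlx3 and Maf were lower, and the other 6 did not pass the test. That is 1 gene called higher, or 11.1% of the 9, beside 7.19% of all genes, and 2 called lower, or 22.2%, beside 6.03% of all genes. In either direction 3 of 9 were called, beside 13.2% of all genes. With 9 genes, 1 call is 11.1% of the list, so the shares are coarse. The ranges of the 4 null and the 4 WT arrays did not overlap for these same 3 genes, while 19.0% of all genes had ranges that did not overlap. All 9 genes lay above the highest negative control median, but only 16722 of the 30063 genes had mean signals above it. With dim genes filtered out, 2159 genes were called higher and 2016 lower, so the shares called among brighter genes are larger. The shares of all genes therefore do not show that the 9 genes were called more often than brighter genes. The median difference of the 9 genes was 0.05, and that of all genes was 0.01. In whole skin, fewer cells of a type and less RNA per cell cannot be told apart.

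**Figure D1:**
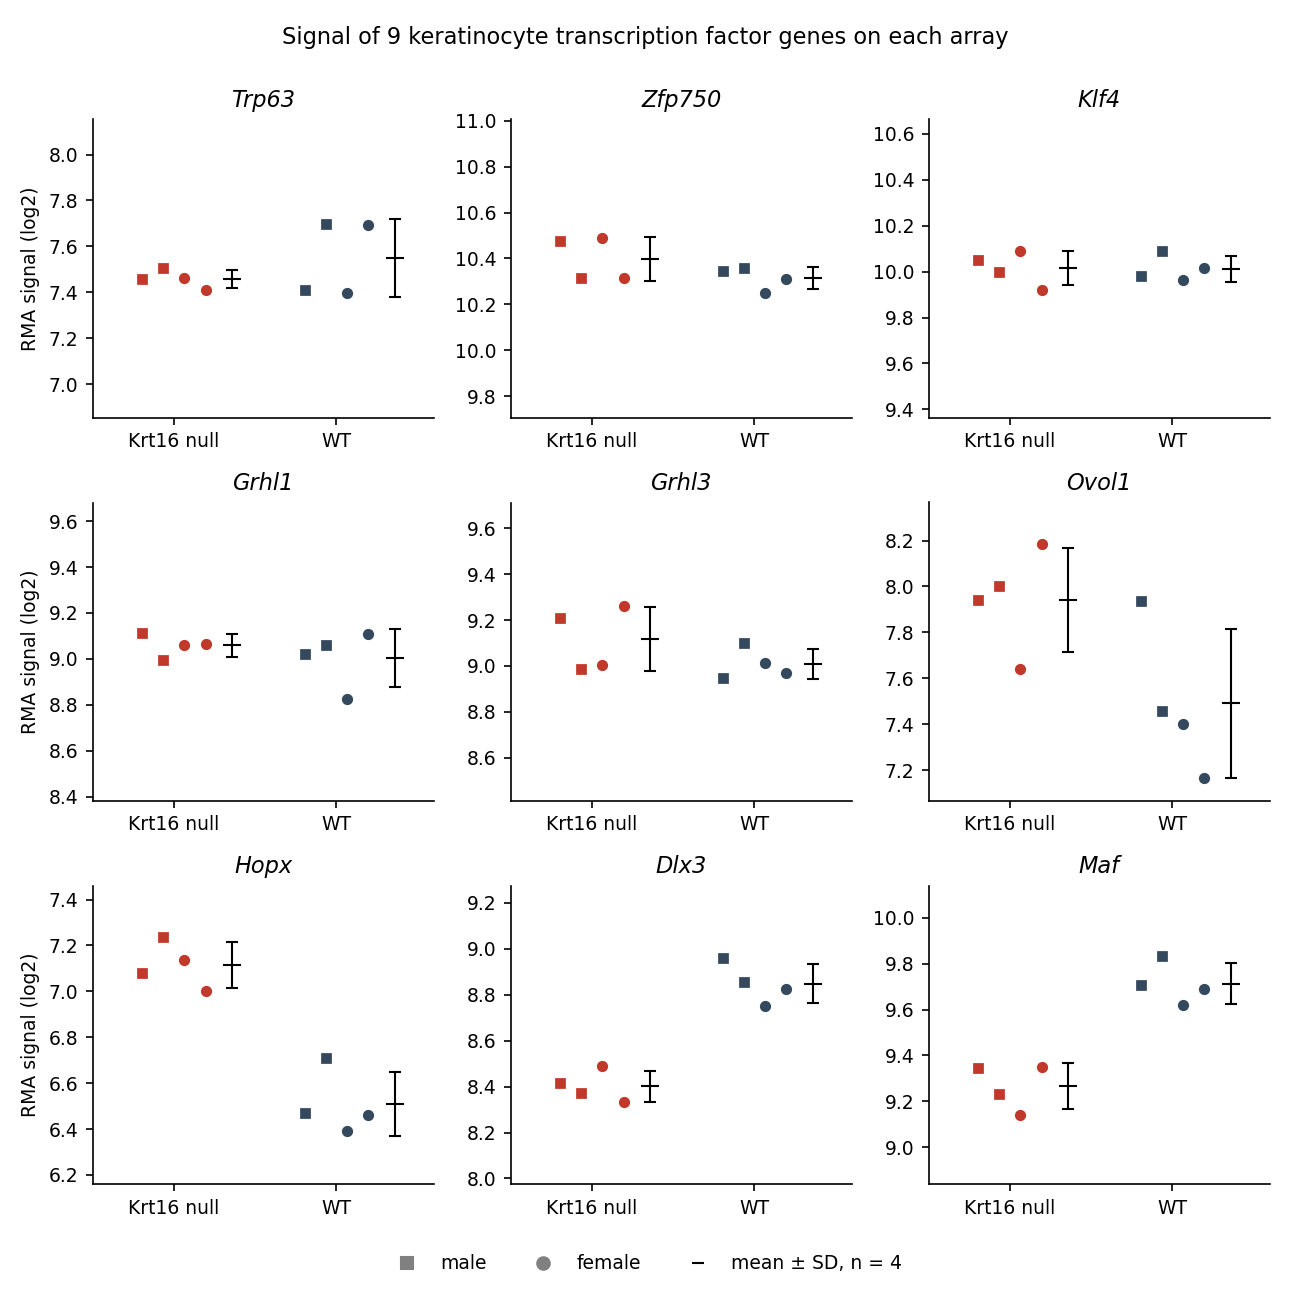
Log2 RMA signal (vertical axis) of each of the 9 genes on each array, with Krt16 null arrays at the left and WT arrays at the right of each panel, squares for males, circles for females, and mean ± SD bars (n = 4). All panels span the same number of log2 units around their own centre; null points of Hopx lie above, and those of Dlx3 and Maf below, all of their WT points.

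Trp63 encodes p63, the factor that defines stratified epithelium. Trp63 had 7.46, 7.51, 7.46 and 7.41 in null skin and 7.41, 7.70, 7.40 and 7.69 in WT skin. The null arrays lay close together and inside the WT range, where male WT 2 and female WT 2 were high and the other two WT arrays were at the level of the lowest null array. The SD was 0.04 in null skin and 0.17 in WT skin (n = 4 each). The difference was -0.09 (SE 0.08, adjusted p = 0.563), with a 95% interval from -0.28 to 0.10. Male WT 2 and female WT 2 also had the highest mean keratinocyte marker signals of the WT arrays, 11.092 and 10.998, while male WT 1 had 10.947 and female WT 1 had 10.884. With that marker mean as a covariate the Trp63 difference was -0.41 (adjusted p = 0.0816), the largest fall among 22 alternatives. Over all of them the Trp63 difference lay between -0.41 and -0.02, and Trp63 was never called. Without 1 array it was -0.15 to -0.03. The marker mean, with sex, accounted for 71.4% of the variation of the genotype term, and a role of keratinocyte content was not tested. Of the 9 markers in that mean, Sfn (difference 0.72) and Cdh1 (difference 0.27) were called higher. The other 7 were not called and differed by -0.08 to 0.20.

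Zfp750 and Klf4 stand next in this chain in human cells. Zfp750 had 10.47, 10.31, 10.49 and 10.31 in null skin and 10.34, 10.36, 10.25 and 10.31 in WT skin. Male null 1 and female null 1 were above every WT array, while the other two null arrays lay among the WT arrays. The difference was 0.08 (SE 0.06, adjusted p = 0.477). Klf4, a zinc finger factor needed for the skin barrier in mice, had 10.050, 9.999, 10.090 and 9.919 in null skin and 9.980, 10.090, 9.966 and 10.018 in WT skin. The groups overlapped over almost their whole ranges. The Klf4 difference was 0.00 (SE 0.06, adjusted p = 0.994), with an interval from -0.13 to 0.13, and its sign changed with the scaling of the arrays. Klf4 and Zfp750 had the closest profiles of any pair among the 9. Their mean-centred values lay at a root mean square distance of 0.06 log2 units over the 8 arrays. The distance is not scaled to a gene's own spread, so genes that vary little lie close to each other. Klf4 had an SD of 0.07 in null skin and 0.06 in WT skin (n = 4 each), so the closeness does not show that the pair varied together.

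The grainyhead-like factors Grhl1 and Grhl3 share a DNA motif. Grhl3 is needed for barrier formation and wound closure in mice and Grhl1 for desmosomal cadherin expression. Grhl3 had 9.21, 8.99, 9.01 and 9.26 in null skin and 8.95, 9.10, 9.01 and 8.97 in WT skin. Male null 1 and female null 2 exceeded every WT array, and the other two null arrays did not. The difference was 0.11 (SE 0.08, adjusted p = 0.436). Grhl1 had 9.114, 8.995, 9.060 and 9.064 in null skin and 9.020, 9.061, 8.823 and 9.110 in WT skin. Its groups overlapped, with female WT 1 the lowest array. The Grhl1 difference was 0.05 (SE 0.07, adjusted p = 0.700), and it was -0.03 after repeated quantile normalization.

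Ovol1, the zinc finger repressor, varied more between mice than the other 8 genes, with an SD of 0.23 in null skin and 0.32 in WT skin (n = 4 each). Ovol1 had 7.94, 8.00, 7.64 and 8.19 in null skin and 7.94, 7.46, 7.40 and 7.17 in WT skin. All WT arrays other than male WT 1 lay below every null array, and male WT 1 stood level with male null 1. The difference was 0.45 (SE 0.15), with an interval from 0.12 to 0.78, an unadjusted p of 0.0130 and an adjusted p of 0.0778, so Ovol1 was not called. Without male WT 1 the Ovol1 difference was 0.58 (adjusted p = 0.0337), and without female null 2 it was 0.31 (adjusted p = 0.151). Myc, a gene that OVOL1 represses in mouse epidermis, averaged 7.20 ± 0.06 in null skin and 7.30 ± 0.16 in WT skin (SD, n = 4 each; difference -0.10, adjusted p = 0.521).

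Hopx, the homeodomain cofactor, is expressed in differentiating keratinocytes and in hair follicle stem cells. Hopx had 7.0788, 7.2385, 7.1354 and 6.9997 in null skin and 6.4712, 6.7093, 6.3898 and 6.4601 in WT skin. Every null array lay above every WT array, with male WT 2 the highest of the WT arrays. Hopx averaged 7.11 ± 0.10 in null skin and 6.51 ± 0.14 in WT skin (SD, n = 4 each), a difference of 0.61 (SE 0.07, adjusted p = 0.00117) with an interval from 0.44 to 0.77. This is 1.52-fold on the linear scale. The absolute difference was larger than in 97.0% of all genes.

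A dimmer Hopx probe set, close to the highest negative control median of 4.46, was also on the array. It had 4.95, 5.06, 4.94 and 4.89 in null skin and 4.99, 4.91, 4.65 and 4.73 in WT skin for Hopx. Its groups overlapped, because male WT 1 and male WT 2 lay among the null arrays. In a fit of all 65956 non-control probe sets, chosen after seeing the data, the dimmer Hopx probe set differed by 0.14 (SE 0.07, adjusted p = 0.285) and the brighter one by 0.61 (adjusted p = 0.00216). The mean of both probe sets gave a Hopx difference of 0.37 (adjusted p = 0.00519). Which transcripts of Hopx each probe set covers is not known here.

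Dlx3 encodes a homeodomain factor of suprabasal epidermis and of the hair follicle. Dlx3 had 8.41, 8.37, 8.49 and 8.33 in null skin and 8.96, 8.86, 8.75 and 8.83 in WT skin. Every null array lay below every WT array. Dlx3 averaged 8.40 ± 0.07 in null skin and 8.85 ± 0.09 in WT skin (SD, n = 4 each), a difference of -0.45 (SE 0.06, adjusted p = 0.00244) with an interval from -0.58 to -0.31. On the linear scale the null signal was 73.4% of the WT signal.

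Maf encodes a leucine zipper factor that promotes differentiation of human keratinocytes, and it is also expressed in tissue macrophages. Maf had 9.34, 9.23, 9.14 and 9.35 in null skin and 9.71, 9.84, 9.62 and 9.69 in WT skin. Every null array lay below every WT array, with female null 1 the lowest. Maf averaged 9.27 ± 0.10 in null skin and 9.71 ± 0.09 in WT skin (SD, n = 4 each), a difference of -0.45 (SE 0.07, adjusted p = 0.00350) with an interval from -0.59 to -0.30. The null signal was 73.5% of the WT signal on the linear scale. Dlx3 and Maf, which moved by nearly the same amount, had profiles 0.11 log2 units apart.

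**Figure D2:**
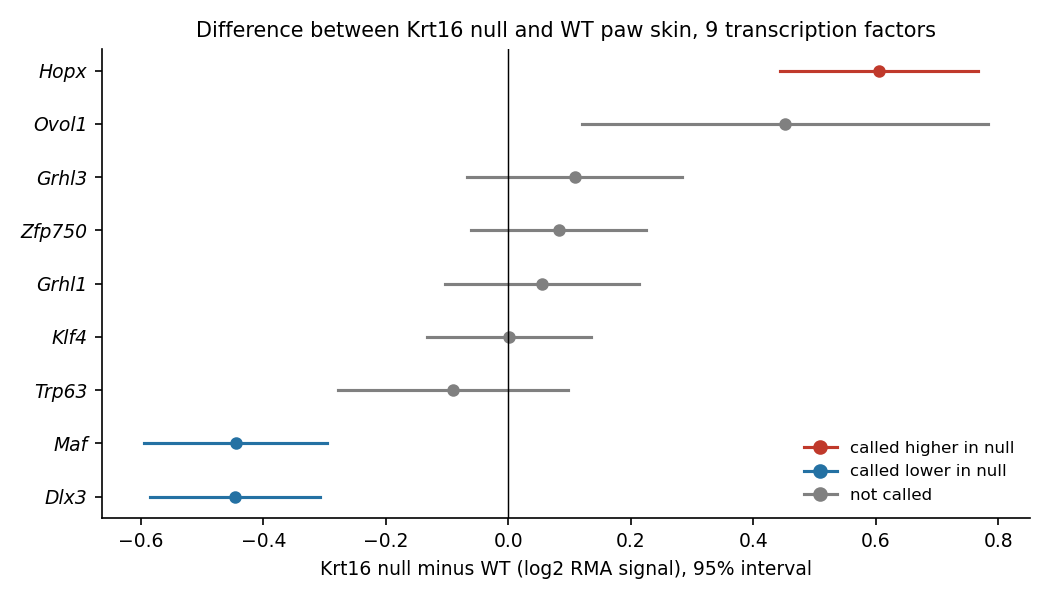
Krt16 null minus WT difference in log2 RMA signal (horizontal axis) with its 95% interval for each of the 9 genes, ordered by size, in red where called higher in null skin, blue where called lower and grey where not called. Hopx stands at 0.61, Dlx3 and Maf both stand at -0.45, and the interval of Ovol1 excludes 0 although it was not called.

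Each sex showed the same direction for the called genes. Hopx differed by 0.64 in females and by 0.57 in males. Dlx3 differed by -0.38 in females and by -0.51 in males, and Maf by -0.41 in females and by -0.48 in males. In this limma fit of 4 group means, Hopx was called in females (adjusted p = 0.0239) and in males (adjusted p = 0.0401). Dlx3 was called in males (adjusted p = 0.0275) but not in females (adjusted p = 0.0605). Maf was called in neither sex (adjusted p = 0.0510 in males and 0.0691 in females). Ovol1 had the widest gap of these 4 genes, with 0.63 in females and 0.27 in males. The difference between the sexes (female minus male) was 0.36 for Ovol1, 0.14 for Dlx3, 0.07 for Hopx and 0.07 for Maf, and limma's interaction term called 0 of the 9 (adjusted p of at least 0.979 for each, 0 of 9 with an unadjusted p under 0.05). Over all genes the interaction called 2, or 0.00665%, and 1262 had an unadjusted p under 0.05. With 2 mice in each group, this comparison has little precision.

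Markers of the cell types the skin could hold were counted in the same fit, beside 7.19% of all genes called higher and 6.03% called lower. These shares include genes below the highest negative control median and are smaller than the shares among brighter genes. All measured markers outside the T cell list had means above that median, as did all genes of the lists read further below. Of 12 skeletal muscle markers 10 were lower in null skin, Neb, Eno3 and Ckm among them, and their mean signal was 8.11 to 8.70 on the null arrays and 8.89 to 9.73 on the WT arrays. Of 10 macrophage markers 3 were lower (Folr2, Cd163 and C1qc), with means of 5.71 to 6.55 on the null arrays and 6.46 to 7.12 on the WT arrays. Of 7 hair follicle markers 2 were lower (Lgr5 and Lhx2), with means of 7.17 to 7.83 on the null arrays and 7.41 to 8.54 on the WT arrays, where female WT 1 was the lowest. The other 5 follicle markers were not called, but the median difference of the 7 was -0.68, and 6 had an unadjusted p under 0.05. Of 9 keratinocyte markers 2 were higher (Sfn and Cdh1), with means of 11.1 to 11.2 on the null arrays and 10.9 to 11.1 on the WT arrays, and all 9 were above the negative controls. Dcn was the 1 of 5 fibroblast markers called, lower in null skin, and Vwf and Pecam1 were the 2 of 6 endothelial markers called, higher in null skin. Of 7 T cell markers 1 was called higher (Cd3g), but 6 of the 7 means, that of Cd3g included (3.87 in null skin and 3.66 in WT skin), were not above the highest negative control median, and Cd3g lost its call with same-numbered mice as pairs (adjusted p = 0.0527) and without any 1 of 7 arrays. In addition, 0 of 6 sweat gland and simple epithelial markers were called. Other single calls were weak too: among 22 alternatives Ckm lost its call or changed sign in 10, Folr2 lost it in 9, C1qc in 14, Cd163 in 7, Lgr5 in 11, Lhx2 in 5, Dcn in 13, Pecam1 in 12 and Vwf in 7. Cdh1 lost its call in 13 and changed sign in 1, repeated quantile normalization (adjusted p = 0.151) and median centring (adjusted p = 0.0755) among them. Leaving out 1 array ended the call of C1qc for 7 arrays, of Dcn and Cdh1 for 6, of Pecam1 and Lgr5 for 5, of Ckm for 4, of Folr2 for 3 and of Cd163 and Vwf for 1.

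These marker means were set beside Hopx, Dlx3 and Maf as covariates. With the macrophage mean, Maf differed by -0.45 (adjusted p = 0.0399), Hopx by 0.52 (adjusted p = 0.0224) and Dlx3 by -0.46 (adjusted p = 0.0271). With the hair follicle mean, Dlx3 differed by -0.36 (adjusted p = 0.0250), Hopx by 0.61 (adjusted p = 0.0107) and Maf by -0.42 (adjusted p = 0.0321). These 2 covariates, added after seeing the data, left all 3 genes called. With the skeletal muscle mean, Hopx differed by 0.41 (adjusted p = 0.135), Dlx3 by -0.52 (adjusted p = 0.0736) and Maf by -0.47 (adjusted p = 0.125). With the keratinocyte mean, Hopx differed by 0.40 (adjusted p = 0.120), Dlx3 by -0.42 (adjusted p = 0.124) and Maf by -0.55 (adjusted p = 0.0749), so neither fit called any of the 3. The skeletal muscle mean, with sex, accounted for 72.8% of the variation of the genotype term across the 8 arrays, and the keratinocyte mean for 71.4%. The macrophage mean accounted for 48.0% and the hair follicle mean for 43.1%, and for both of these means the null and WT ranges overlapped. These shares carry no test. Whether cell content underlies the differences of Hopx, Dlx3 and Maf was not tested.

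Of the 22 alternative settings, 19 kept Hopx, Dlx3 and Maf called. Besides the skeletal muscle and keratinocyte covariates, the fit on females alone ended the calls: there Hopx differed by 0.64 (adjusted p = 0.0510), Dlx3 by -0.38 (adjusted p = 0.166) and Maf by -0.41 (adjusted p = 0.166).

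**Figure D3:**
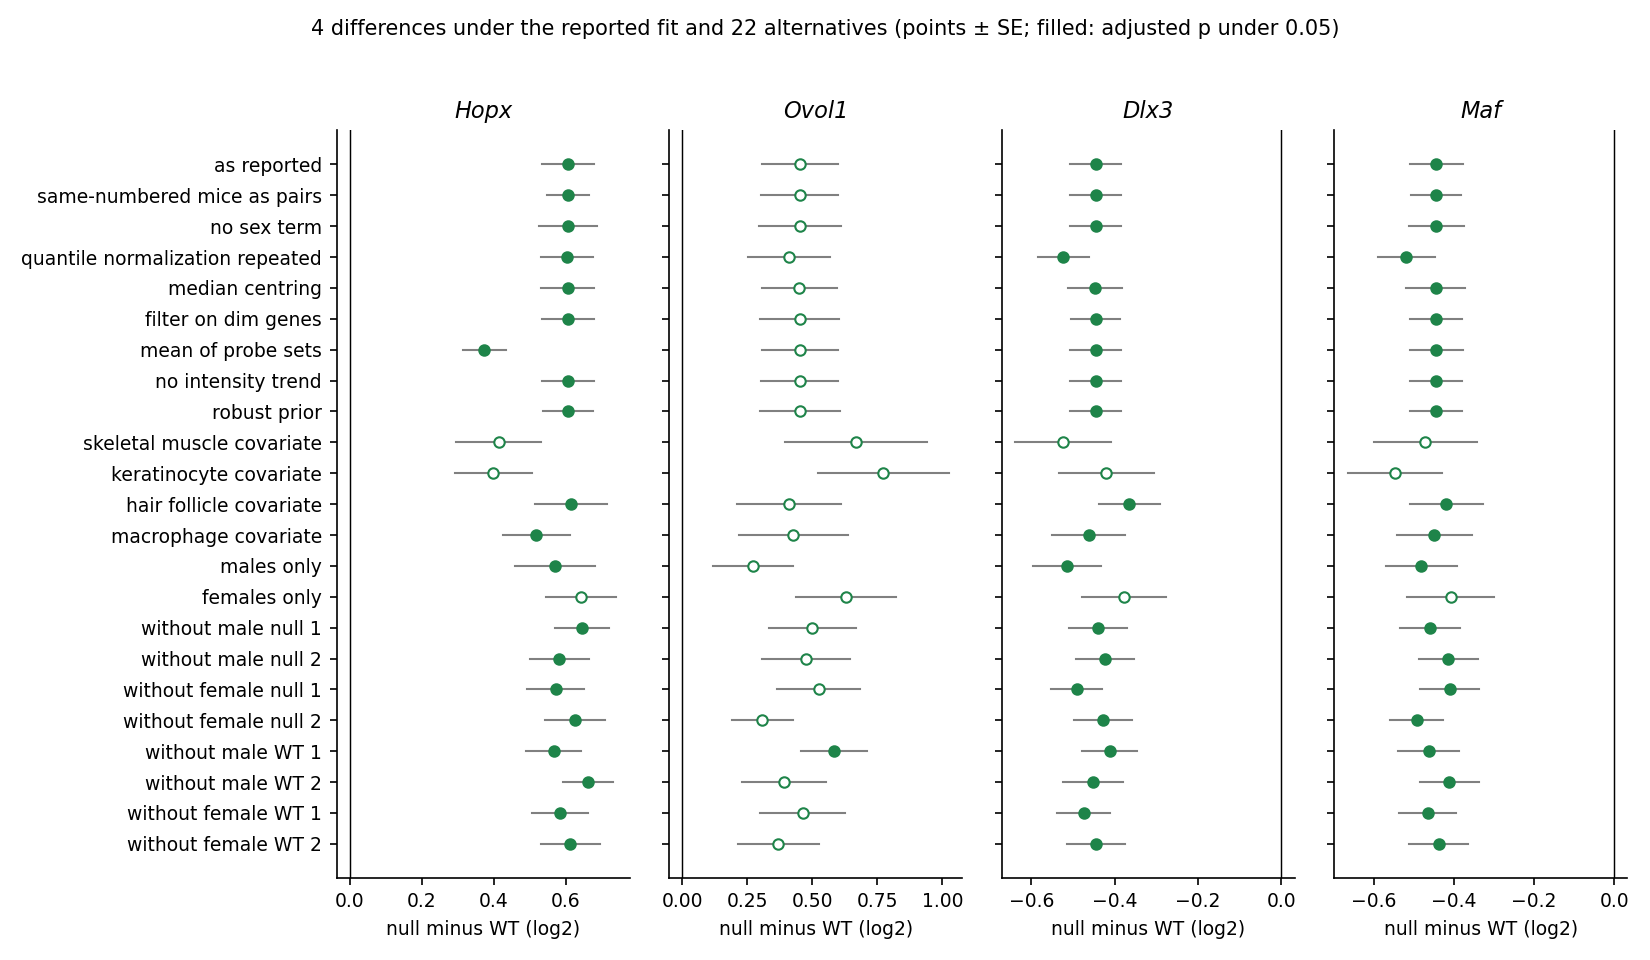
Krt16 null minus WT difference in log2 RMA signal (horizontal axis) ± SE for Hopx, Ovol1, Dlx3 and Maf under the reported fit and 22 alternatives (rows), filled where the adjusted p was under 0.05. The points of Hopx lie between 0.37 and 0.66, those of Dlx3 between -0.52 and -0.36 and those of Maf between -0.55 and -0.41; Ovol1 is filled only without male WT 1.

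Genes on which these factors act were read next. Of 7 measured genes linked to them in the literature, 1 was higher, 1 was lower and 5 were not called, beside 7.19% of all genes called higher and 6.03% called lower; with 7 genes, 1 call is 14.3% of the list. Tgm1, the envelope cross-linking enzyme that Grhl3 activates in mice, averaged 9.97 ± 0.11 in null skin and 9.37 ± 0.09 in WT skin (SD, n = 4 each; difference 0.60, adjusted p = 0.000734). Tgm1 lost its call under the same 3 settings that ended those of Hopx, Dlx3 and Maf. Its adjusted p was 0.0827 with the skeletal muscle mean, 0.0804 with the keratinocyte mean and 0.0517 in females alone. Calls over all genes also fell there, with 173 genes called higher in the keratinocyte fit beside 2161 as reported. Lor, the cornified envelope protein loricrin that is known as a target of KLF4 and DLX3, averaged 11.10 ± 0.16 in null skin and 11.45 ± 0.13 in WT skin (SD, n = 4 each; difference -0.35, adjusted p = 0.0344). All null arrays of Lor lay below all WT arrays, but without any 1 of male null 2, female null 2, male WT 2 or female WT 2 it was not called, with an adjusted p of up to 0.114. Flg, the filaggrin gene, differed by -0.02 (adjusted p = 0.890), and Dsg1a, a desmosomal cadherin gene of the kind that Grhl1 activates, by -0.06 (adjusted p = 0.660). The p63 targets Krt14, a basal keratin, and Perp, a desmosome component, differed by 0.20 (adjusted p = 0.315) and 0.04 (adjusted p = 0.794).

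Other regulators of the epidermis were read from a list of 26, of which 22 were measured. Of these, 6 were higher in null skin and 1 was lower, beside 7.19% and 6.03% of all genes, and the median difference of the 22 was 0.01. Elf3, an epithelial ETS factor, averaged 6.49 ± 0.31 in null skin and 4.98 ± 0.15 in WT skin (SD, n = 4 each; difference 1.51, adjusted p = 0.000352). The WT mean of Elf3 was close to the highest negative control median of 4.46. Ehf, an ETS factor of the same branch, averaged 8.83 ± 0.08 in null skin and 7.45 ± 0.31 in WT skin (SD, n = 4 each; difference 1.38, adjusted p = 0.000478). Klf5, a zinc finger factor of proliferating epithelium, differed by 0.43 (adjusted p = 0.00352), Ets1 by 0.50 (adjusted p = 0.0258), Runx1 by 0.40 (adjusted p = 0.0358) and Cebpb by 0.28 (adjusted p = 0.0149). Rora, a nuclear receptor gene, averaged 10.32 ± 0.12 in null skin and 11.05 ± 0.12 in WT skin (SD, n = 4 each; difference -0.73, adjusted p = 0.000353).

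The weaker of these calls changed with the setting. Ets1 lost its call without any 1 array other than female WT 1, with an adjusted p of up to 0.0882. Runx1 lost it without any 1 of the 4 null arrays or without female WT 2, with an adjusted p of up to 0.104. Cebpb lost it under 9 of 22 alternatives, among them repeated quantile normalization (0.23, adjusted p = 0.0559), and without male null 2 or female null 1 (adjusted p of up to 0.0589). Elf3 and Rora kept their calls under all 22 alternatives, although the Rora difference was -0.47 (adjusted p = 0.00106) with the mean of its probe sets, while Klf5 and Ehf lost theirs under 5 and 2 of them. With the skeletal muscle mean as a covariate 3 of the regulators were called higher, with the keratinocyte mean 2, and in females alone 1.

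**Figure D4:**
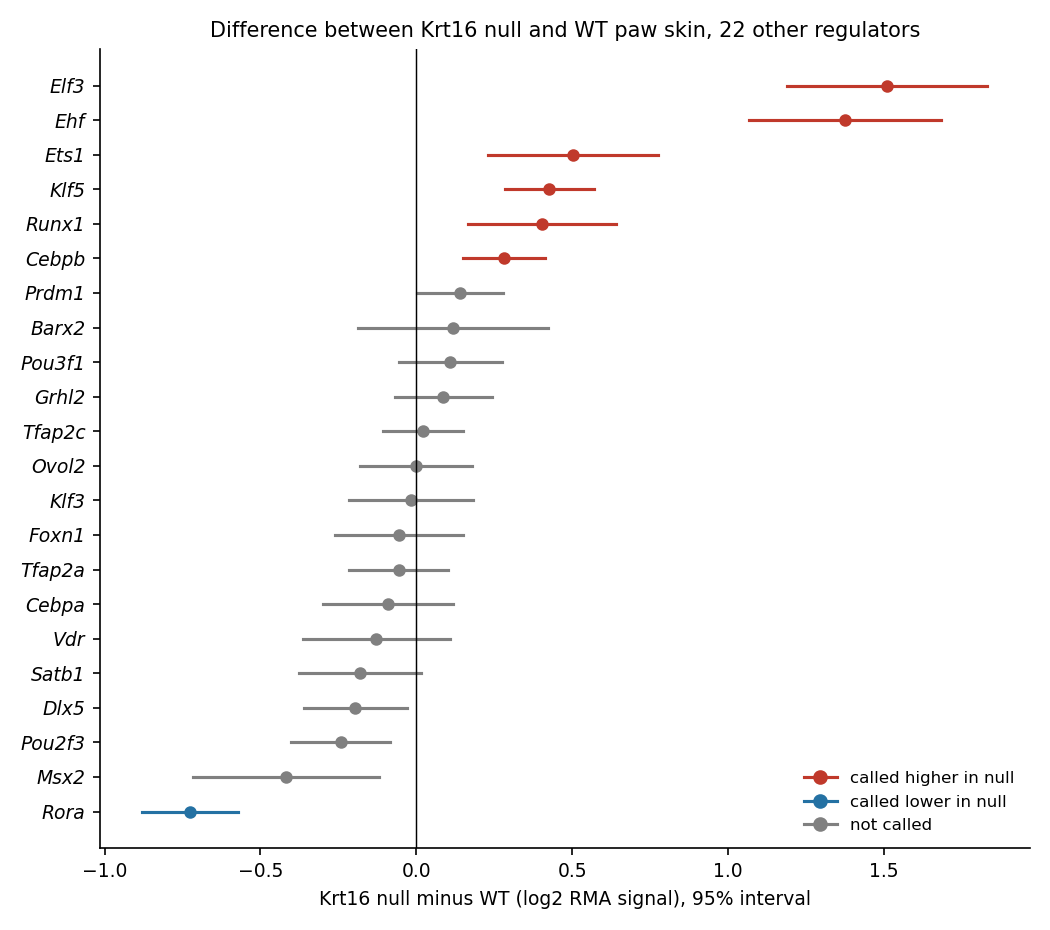
Krt16 null minus WT difference in log2 RMA signal (horizontal axis) with its 95% interval for the 22 other regulators, ordered by size, in red where called higher in null skin, blue where called lower and grey where not called. Elf3 at 1.51 and Ehf at 1.38 stand apart from the next gene, Ets1 at 0.50, and Rora at -0.73 is the lowest.

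The genes of the layers in which the 9 factors act were counted as well. Of 12 basal layer genes 0 were higher and 4 were lower, beside 7.19% and 6.03% of all genes, with a median difference of -0.06. Col17a1, a hemidesmosomal collagen gene, differed by -0.61 (adjusted p = 0.000293), Krt15, a keratin of basal cells, by -0.56 (adjusted p = 0.00466) and Dst, a hemidesmosomal plakin, by -0.49 (adjusted p = 0.00759). The other 8 were not called, with differences from -0.12 to 0.20. Several of them were above 0, Krt14 (0.20) and Perp (0.04) among them. The mean signals of the 12 overlapped, with 8.55 to 8.73 on the null arrays and 8.66 to 8.79 on the WT arrays. Of 27 differentiation genes 11 were higher and 2 were lower, with a median difference of 0.08. Rptn, a fused S100 protein of the upper epidermis, differed by 1.86 (adjusted p = 4.17e-06), Cers3, a ceramide synthase of the barrier, by 0.85 (adjusted p = 0.000259) and Tgm5, a transglutaminase, by 0.73 (adjusted p = 0.00272). The 2 lower differentiation genes were Lor and Krt2, a late suprabasal keratin, which differed by -0.60 (adjusted p = 0.000926). With the skeletal muscle or the keratinocyte mean as a covariate, 1 of the basal layer genes was called lower and 2 of the differentiation genes were called higher.

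The genes whose profiles over the 8 arrays were closest to those of Hopx, Dlx3 and Maf were found among 13375 genes by the root mean square distance between mean-centred log2 values. Because both genotypes are among the 8 arrays, this distance reflects the genotype difference as well as the spread within a genotype, and it carries no test. Closest to Hopx were Tgm1 at 0.05, Trex2, a DNA exonuclease gene of keratinocytes, at 0.05 and Dusp5, a phosphatase of ERK kinases, at 0.06. Closest to Dlx3 were Cited2, a transcriptional coregulator gene, at 0.04, Secisbp2l at 0.05 and Sun2, a nuclear envelope protein gene, at 0.05. Closest to Maf were Camsap3, which encodes a microtubule minus-end protein, at 0.05, Camta1, a calmodulin-binding transcription activator gene, at 0.05 and Pak3, a kinase gene, at 0.05. The differences of these genes were 0.60 to 0.64 for the genes near Hopx, -0.47 to -0.38 for those near Dlx3 and -0.47 to -0.36 for those near Maf.

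**Figure D5:**
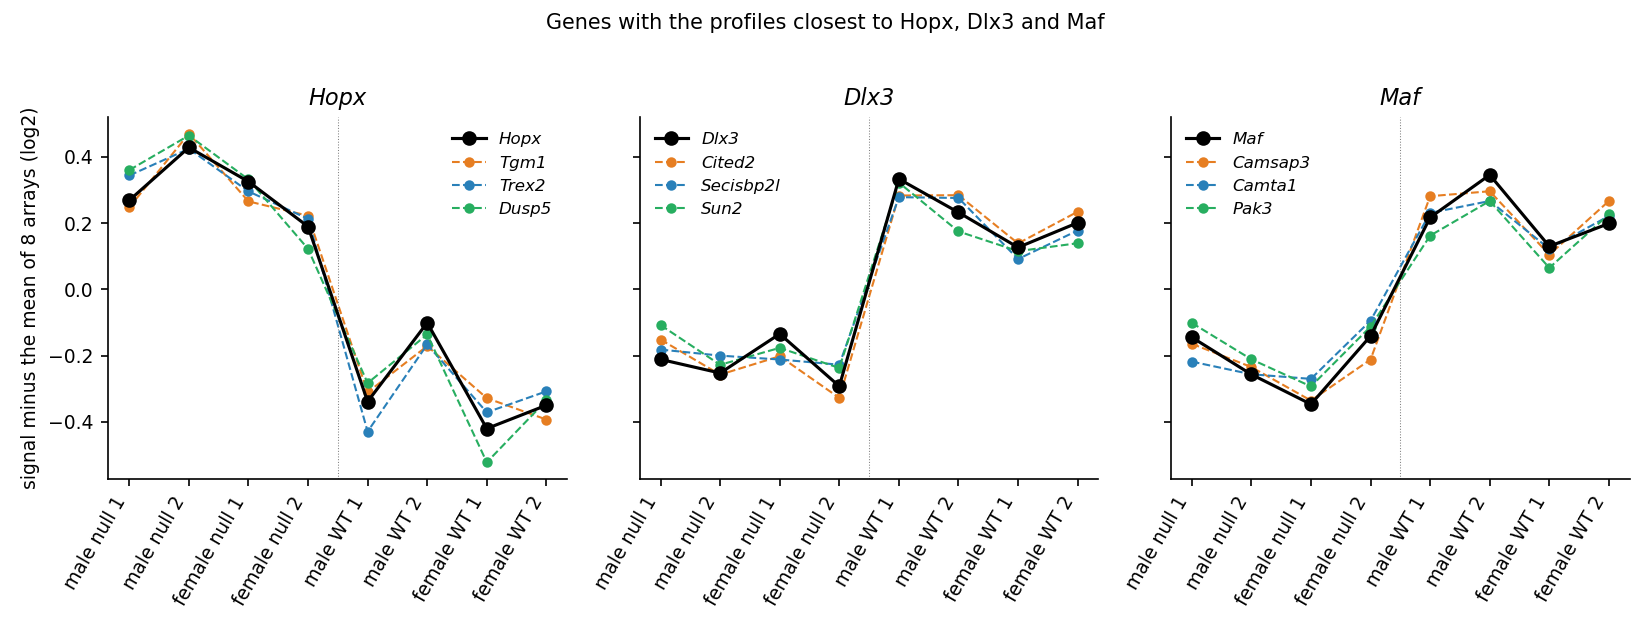
Log2 RMA signal minus the mean of the 8 arrays (vertical axis) on each array (horizontal axis, null arrays at the left of the dotted line, WT arrays at the right) for Hopx, Dlx3 and Maf in black and the 3 genes closest to each in colour. Within the null arrays Hopx peaks on male null 2 together with Tgm1, Trex2 and Dusp5. Maf is lowest on female null 1 together with Camsap3, Camta1 and Pak3. The coloured genes were chosen for closeness over these same arrays, so shared highs and lows follow from the choice.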

How the data were processed

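Forepaw skin RNA from 8 mice was biotin-labelled with the WT PLUS kit and hybridised to 1 Affymetrix array per mouse, per the labels' protocols. The deposited table holds log2 signals for each probe set and array, which the authors obtained through RMA in Partek, per the submitters' processing notes. RMA corrects the background, quantile-normalizes and summarises probes, and it compresses large differences. Versions, settings and the genome build were not given in the sources used. Array values have no read depth, and the number of arrays limits the precision.

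The table had 72688 probe sets, from which 6732 controls were removed. Annotation with exactly 1 gene symbol covered 30604 of the others and 30063 genes. Where a gene had several probe sets (429 genes), the brightest was used. Symbols of 1135 probe sets were updated from the RefSeq gene table, and promoter sequences are RefSeq's for GRCm38.p6. Array medians were 3.97 to 4.03. Pearson correlations across genes were 0.992 to 0.997 between arrays of 1 genotype and 0.984 to 0.990 between genotypes. Some listed genes are not reported here.

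The genotype difference was fitted in limma 3.58.1 (R 4.3.3) by lmFit with genotype and sex and by eBayes with an intensity trend, and p-values were adjusted over all 30063 genes. Sex effects came from 4 group means. The fits were checked on simulated data. The 9 genes, all lists and the rule for named genes were chosen with earlier results of these data known. The rule names the 9 genes, Krt16, all linked genes, the called other regulators, up to 3 largest called rises and falls of each other list, and the 3 closest profiles to each called gene of the 9, among genes over the negative controls and without predicted loci. Python 3.11.15 was used for the tables (pandas 2.3.3, numpy 2.4.6) and the plots (matplotlib 3.10.9).

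Replicate numbers were examined as possible pairs. Deviations from the group means correlated across genes at 0.321 between same-numbered null and WT males and at 0.113 between same-numbered null and WT females. Since each group has 2 mice, the pairs of 1 sex have a single correlation in common. These values are over 0.1, so blocking on the 4 pairs was an alternative, although no label ties a number to a litter or day. Further alternatives were no sex term, 2 other scalings, a filter on dim genes, the mean of probe sets, no trend, a robust prior, marker means as covariates, 1 sex alone and each array left out in turn.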

Additional observations from a re-analysis of the deposited data

How the results depend on the processing

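Of 22 alternatives, 19 left Hopx, Dlx3 and Maf called. With skeletal muscle or keratinocyte markers as a covariate and in females alone, 0 of the members were called higher and 0 lower, against 1 and 2 as reported. Leaving out each array in turn gave 1 to 2 members called higher, 2 of them without male WT 1, and 2 called lower each time. Under the replicate block, which takes same-numbered mice as pairs, 1 member was called higher and 2 lower, Ovol1 had an adjusted p of 0.0875, and the genes called over the whole table numbered 2545 higher and 2011 lower. The Krt16 difference was -1.45 and passed the threshold with this pairing (adjusted p = 0.0283) and without a sex term (adjusted p = 0.0439). Krt16 also passed with the skeletal muscle covariate (-3.07), in males alone (-1.49) and without female WT 1, with a range of -1.98 to -0.94 when each array was left out. Krt16 did not pass with the hair follicle covariate (-0.57, adjusted p = 0.476), the keratinocyte covariate (-2.53, adjusted p = 0.143), the macrophage covariate (-2.20, adjusted p = 0.0508) or the robust prior (adjusted p = 0.183). The block changed no call among the 9 members, and it ended that of Cd3g (adjusted p = 0.0527). Over all genes, 2161 genes were called higher and 1814 lower as reported, 245 and 111 with the skeletal muscle covariate, 173 and 138 with the keratinocyte covariate, 228 and 136 in females alone, and 1204 to 2283 and 841 to 1851 without 1 array, where the counts moved most without male null 2, female null 1 or male WT 1 and, for lower genes, female null 2.

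Of the other regulators, 6 were called higher and 1 lower as reported. The count of regulators called higher was 5 after repeated quantile normalization, 3 with the skeletal muscle or hair follicle covariate and in males, 2 with the keratinocyte or macrophage covariate, 1 in females, and 3 to 6 without 1 array (3 without male null 2 or female null 1). The count of regulators called lower was 2 after repeated quantile normalization, with the filter on dim genes, the robust prior or the macrophage covariate, 3 with the skeletal muscle covariate, and 1 to 3 without 1 array (above 1 without male WT 1 or female WT 1). Basal layer genes called lower numbered 4 as reported, 1 with the skeletal muscle or keratinocyte covariate, 2 with the macrophage covariate and in males, and 0 in females. Differentiation genes called higher numbered 11 as reported, 2 with the skeletal muscle or keratinocyte covariate and in females, and 5 with the macrophage covariate and in males. Differentiation genes called lower numbered 2 as reported, 0 with the skeletal muscle or keratinocyte covariate and in females, 1 with the hair follicle or macrophage covariate and in males, and 1 to 4 without 1 array (4 without male WT 1, and 1 without male null 2, female null 2, male WT 2 or female WT 2).

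Changes of sign were found only for differences that had not been called, apart from Ckm and Cdh1. Klf4 was -0.072 after repeated quantile normalization, -7.38e-05 after median centring, -0.075 with the skeletal muscle and -0.074 with the keratinocyte covariate, -0.011 in males, and -0.035 to 0.033 without 1 array. Grhl1 was -0.028 after repeated quantile normalization, -0.12 with the skeletal muscle and -0.089 with the keratinocyte covariate, and -0.011 to 0.10 without 1 array. The female minus male difference was -0.015 for Hopx with the skeletal muscle covariate, and without 1 array it was -0.045 to 0.19 for Hopx and -0.029 to 0.18 for Maf. Perp was -0.065 after repeated quantile normalization, -0.13, -0.15 and -0.025 with the skeletal muscle, keratinocyte and macrophage covariates, and -0.0030 to 0.069 without 1 array. With those 3 covariates Krt14 was -0.23, -0.15 and -0.086, and Flg was 0.0057, 0.0046 and 0.015. Perp and Krt14 are both keratinocyte markers, so the keratinocyte covariate contains them. Dsg1a was 0.017 with the hair follicle covariate, Ckm 0.19 with the skeletal muscle covariate that contains it, and Cdh1 -0.00078 with the keratinocyte covariate that contains it. The causes of these changes were not tested. The hair follicle and macrophage covariates were chosen after seeing the data.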
